A study of Mus musculus with 8 samples.

Results

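A set of 10 genes of the immediate early and stress response were followed in the livers of mice infused through the portal vein with a gut microbial metabolite or with saline. They were Fos, Jun, Junb, Jund, Egr1, Ier2, Atf3, Gadd45b, Gadd45g and Myc, taken by gene symbol, and their transcripts were summed per gene. These are 10 of the 35975 genes to which transcripts could be assigned, and all 10 had at least 10 counts in every library. Liver RNA came from C57BL/6 mice (C57BL/6J in the methods), 4 given normal saline and 4 given 4-HPAA (4-hydroxyphenylacetic acid, a phenolic acid that gut bacteria make from flavonoids and amino acids) for 2 weeks. In both groups the portal vein was cannulated, a pump under the skin fed the catheter, and the mice were housed singly after surgery. The labels give neither the age nor the sex of these 8 mice. The methods describe purchased young adults of both sexes, and livers of mice without a catheter were not analysed here. Each library is numbered 1 to 4 within its group by the labels.

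Immediate early genes are transcribed within minutes of a growth factor, cytokine or stress signal and need no new protein for it, since kinases of the MAPK cascades act on factors already bound at their promoters. Their messengers are short-lived, so a single sample catches a moment of the response. Fos and the Jun proteins pair through leucine zippers to form AP-1, Egr1 is a zinc finger factor, Atf3 is a stress-induced factor of the ATF/CREB family, the Gadd45 proteins act in growth arrest and in signaling to stress kinases, and Myc drives growth and ribosome production. In the liver these genes are known for their rapid induction after partial hepatectomy.

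The livers differed widely from mouse to mouse in most of these genes. The infusion groups overlapped in every one of them, as they did in all but 1.2% of all genes tested. None of the 10 passed the test between 4-HPAA and normal saline (edgeR quasi-likelihood test, Benjamini-Hochberg adjustment over 12883 genes, adjusted p = 1.00 for each). Of all 12883 genes tested, 0 passed. Fos spanned 108-fold between the highest and the lowest mouse, and both groups held a liver with high Fos. Egr1 spanned 29.8-fold. The mice with high Fos, Egr1, Junb and Ier2 were the same 3, normal saline 1, normal saline 4 and 4-HPAA 1. Jund, by contrast, spanned 2.05-fold, where the median over all genes tested was 1.43-fold.

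Total estimated counts were 29559978 to 30673398 per library with no difference between infusions that exceeded the variation among mice (two-sided exact permutation p = 0.343). Levels are given as CPM, counts scaled to library size after TMM normalization (the trimmed mean of M-values). The tissue label was checked against defining markers. The 6 hepatocyte markers, albumin among them, summed to 96950 to 124100 CPM, while 5 neutrophil markers summed to 0.485 to 1.37 CPM and Ly6g was at 0 in 7 of the 8 livers. Libraries that stand apart were normal saline 2 and 4-HPAA 4 in red blood cell genes, with summed levels of 2560 and 734 CPM against 152 to 376 CPM in the other 6. In bulk liver, fewer cells of a type and less RNA per cell cannot be told apart.

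Promoters of AP-1 and ATF members whose level was highest in normal saline 1 or 4-HPAA 1 are shown first. The letters are those of the reference genome, the same for every mouse. Their part in the values by mouse was not tested. RefSeq promoters on GRCm38.p6 were matched for 7 of the 10 members by symbol (Fos, Jun, Junb, Jund, Atf3, Gadd45b and Gadd45g), and not for Egr1, Ier2 and Myc. The RefSeq start of Jund lies 1210 bases before the GENCODE start, so its window is not next to the transcript counted here, and in the other 6 the starts are 0 to 30 bases apart. The 150 bases before the RefSeq start are printed 5′ to 3′ for 4 of them, Fos (chr12:85473740-85473889, plus strand), Jun (chr4:95052223-95052372, minus strand), Junb (chr8:84978749-84978898, minus strand) and Atf3 (chr1:191183334-191183483, minus strand). Capitals mark GGGCGG, the GC box, and TGACG, the core of the site bound by CREB and ATF factors, each read on either strand.
Fos: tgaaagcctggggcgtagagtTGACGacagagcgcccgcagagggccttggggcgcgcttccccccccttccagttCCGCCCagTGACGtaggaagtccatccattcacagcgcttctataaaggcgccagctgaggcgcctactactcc
Jun: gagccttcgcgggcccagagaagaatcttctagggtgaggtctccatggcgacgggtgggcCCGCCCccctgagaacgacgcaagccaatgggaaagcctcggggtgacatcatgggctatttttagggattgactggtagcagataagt
Junb: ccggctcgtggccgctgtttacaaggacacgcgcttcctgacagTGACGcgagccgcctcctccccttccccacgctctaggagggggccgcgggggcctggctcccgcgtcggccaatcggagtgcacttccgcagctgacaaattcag
Atf3: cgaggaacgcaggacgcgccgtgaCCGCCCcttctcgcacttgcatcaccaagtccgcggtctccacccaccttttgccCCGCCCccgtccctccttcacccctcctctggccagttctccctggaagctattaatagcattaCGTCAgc
Over the 250 bases before the start, the GC box was present in 4 of the 7 members (Fos, Jun, Atf3 and Gadd45b) and in 32.7% of 32851 RefSeq promoters. The core TGACG, a motif added after the sequences had been seen, was present in 3 of the 7 (Fos, Junb and Atf3) and in 17.8% of all promoters. Fos carried it at -129 to -125 and at -66 to -62, counted from the last base before the start as -1. In Atf3 it lay at -7 to -3. The full CRE TGACGTCA (1.55% of all promoters), the AP-1 site TGANTCA (6.75%), the EGR1 site GCGTGGGCG (0.536%) and the CArG box, the site of serum response factor (1.47%), were in 0 of the 7. This says only that these letters are not in these windows. Motifs were searched on both strands, and TGACG overlaps every TGACGTCA.

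Fos encodes the AP-1 subunit that is best known as a marker of recent stimulation (chromosome 12, 85473890 to 85477273, plus strand, GRCm38). Normal saline mice 1 to 4 had 45.6, 0.892, 0.951 and 7.38 CPM, and 4-HPAA mice 1 to 4 had 27.5, 0.700, 0.647 and 0.420 CPM. A single liver of each group was therefore far above the rest, normal saline 4 lay between, and the 5 other livers stayed below 1 CPM. In counts, normal saline 1 held 1421, 4-HPAA 1 held 788 and normal saline 4 held 215, against 12 to 29 in the other 5. The means were 13.7 ± 21.5 CPM (SD, n = 4) with normal saline and 7.32 ± 13.5 CPM (SD, n = 4) with 4-HPAA, each SD larger than its mean. The log2 fold change, 4-HPAA over normal saline, was -0.91 with a standard error (SE) of 1.43 and a 95% interval from -4.10 to 2.28. Its direction hung on single livers: it was 1.25 without normal saline 1 and -4.53 without 4-HPAA 1.

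Fos was also read by transcript. The transcript Fos-201 carried 71.5% to 96.4% of the gene's counts in each liver. Fos-203 took 10.1% in normal saline 1, 16.0% in normal saline 4 and 22.1% in 4-HPAA 1, the livers with most Fos, and 18.4% in normal saline 2, where the gene had 26 counts in all. In the remaining 4 livers it was at 0.0%. The split among transcripts is kallisto's estimate.

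Jun, the AP-1 subunit that can pair with itself or with Fos (chromosome 4, 95049034 to 95052222, minus strand), was at 111, 33.8, 22.1 and 33.7 CPM with normal saline and at 41.5, 12.9, 28.6 and 19.7 CPM with 4-HPAA. Normal saline 1 was the highest liver and 4-HPAA 1 the second, and the other 6 lay between 12.9 and 33.8 CPM. Between the groups the log2 fold change was -0.97 (SE 0.51, 95% interval -2.10 to 0.17, edgeR unadjusted p = 0.0868). It was -0.22 without normal saline 1.

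Junb encodes a subunit that often restrains Jun (chromosome 8, 84974484 to 84978718, minus strand). The normal saline mice had 45.6, 13.2, 12.7 and 31.8 CPM and the 4-HPAA mice 51.9, 15.2, 13.5 and 17.7 CPM. The group means were nearly equal, 25.8 ± 15.9 and 24.6 ± 18.3 CPM (SD, n = 4 each), with 1 high liver in the 4-HPAA group and a pair in the normal saline group. Its log2 fold change was -0.07 (SE 0.52, 95% interval -1.24 to 1.09), so a change of about 2-fold either way is within the interval. The 3′ end of Junb overlaps Prdx2 on the other strand, a gene with a mean of 2760 estimated counts, and the methods name kallisto's standard parameters, which do not use strand, so reads of the overlap cannot be told apart.

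Jund, the Jun member that most cells express steadily (chromosome 8, 70698949 to 70700616, plus strand), did not follow the others. It was at 17.3, 15.3, 12.8 and 14.3 CPM with normal saline and at 16.3, 14.8, 23.0 and 26.3 CPM with 4-HPAA. The 2 highest livers were 4-HPAA 3 and 4-HPAA 4, while 4-HPAA 1 and 2 lay inside the normal saline range. The log2 fold change was 0.43 (SE 0.18, 95% interval 0.02 to 0.83, edgeR unadjusted p = 0.0402, adjusted p = 1.00), and the exact permutation test of the means gave p = 0.171 (two-sided). Without 4-HPAA 4 the log2 fold change was 0.27.

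The make-up of the Jun family therefore differed among livers. In TPM, which are counts per length of transcript scaled to the library total, Jund took 14.7% of the summed Jun, Junb and Jund level in normal saline 1 and 49.7% in 4-HPAA 4. Jun was the highest of the 3 in 2 livers, Junb in 2 and Jund in 4. The summed TPM of the family was 120 in normal saline 1 and 80.2 in 4-HPAA 1, and 35.6 to 59.1 in the other 6 livers.

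Atf3, a stress-induced repressor and activator of the ATF/CREB family (chromosome 1, 191170296 to 191218039, minus strand), was low everywhere except in 1 liver. It was at 4.42, 0.618, 0.689 and 0.687 CPM with normal saline and at 0.559, 0.734, 0.485 and 1.01 CPM with 4-HPAA. Normal saline 1 held 138 counts and the other 7 livers 15 to 29. The liver 4-HPAA 1, second in Fos, was not high in Atf3. The fitted log2 fold change was -1.21 (SE 0.67, 95% interval -2.70 to 0.28), the lowest of the 10 members, and it was 0.07 without normal saline 1.

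Egr1 encodes a zinc finger factor induced through the MAPK cascade (ENSMUSG00000038418, chromosome 18). Under normal saline the 4 livers had 141, 28.0, 24.0 and 60.1 CPM, and under 4-HPAA 102, 15.2, 10.3 and 4.72 CPM. From the top, the 3 highest livers were normal saline 1, 4-HPAA 1 and normal saline 4, the order they had in Fos. The 3 lowest livers of all were 4-HPAA 2, 3 and 4, so the groups overlapped through 1 liver, 4-HPAA 1. The log2 fold change was -0.93 (SE 0.90, 95% interval -2.93 to 1.07, edgeR unadjusted p = 0.323). Without 4-HPAA 1 it was -2.65, and without normal saline 1 it was -0.17. Egr1-202 carried 78.1% to 92.5% of the counts.

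Ier2, a small nuclear protein gene that responds to the same signals (chromosome 8, 84661331 to 84662852, minus strand), was at 47.5, 16.4, 16.0 and 29.1 CPM with normal saline and at 39.6, 14.7, 18.2 and 18.8 CPM with 4-HPAA. The same 3 livers were highest and the other 5 lay between 14.7 and 18.8 CPM, a narrow band that holds both groups. Between the groups it differed by a log2 fold change of -0.26 (SE 0.40, 95% interval -1.14 to 0.63).

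Gadd45b, which binds the stress kinase MTK1 and acts in hepatocyte survival (chromosome 10, 80930073 to 80932204, plus strand), came nearest to a separation of the groups. It was at 3.33, 1.201, 1.71 and 1.06 CPM with normal saline and at 1.12, 0.700, 0.809 and 0.979 CPM with 4-HPAA. Normal saline 4 was below 4-HPAA 1, and otherwise each normal saline liver was above each 4-HPAA liver. The means were 1.83 ± 1.04 and 0.901 ± 0.184 CPM (SD, n = 4 each). The log2 fold change was -1.02 (SE 0.37, 95% interval -1.84 to -0.21, edgeR unadjusted p = 0.0192, adjusted p = 1.00), and the exact permutation test gave p = 0.0571 (two-sided), where 0.0286 is the smallest p that 4 against 4 mice allow. Without normal saline 1 the log2 fold change was -0.56.

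Gadd45g, the family member with most RNA in these livers (chromosome 13, 51846678 to 51848468, plus strand), was at 97.6, 46.0, 34.9 and 90.1 CPM with normal saline and at 39.9, 25.3, 67.2 and 53.6 CPM with 4-HPAA. Normal saline 1 and 4 were the highest, but 4-HPAA 1, high in Fos, was the third lowest. Its log2 fold change was -0.53 (SE 0.37, 95% interval -1.35 to 0.29). It was -0.29 without normal saline 1, -0.33 without 4-HPAA 2 and -0.76 without 4-HPAA 3. Per length, Gadd45g made up 87.6% to 95.4% of the summed Gadd45a, Gadd45b and Gadd45g level in TPM and was the highest of the 3 in all 8 livers. A transcript that retains an intron, Gadd45g-202, took 11.7% to 24.4% of its counts.

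Myc, the growth factor-induced bHLH-zipper factor that pairs with Max (chromosome 15, 61985391 to 61990374, plus strand), had an order of its own. It was at 7.47, 12.4, 4.43 and 13.7 CPM with normal saline and at 16.9, 4.401, 15.2 and 18.3 CPM with 4-HPAA. The 3 highest livers had received 4-HPAA, yet 4-HPAA 2 was the lowest of the 8 and normal saline 1, highest in 7 other members, was the third lowest. The log2 fold change was 0.53 (SE 0.44, 95% interval -0.45 to 1.5). It was 0.82 without 4-HPAA 2 and 0.29 without normal saline 3.

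**Figure D1:**
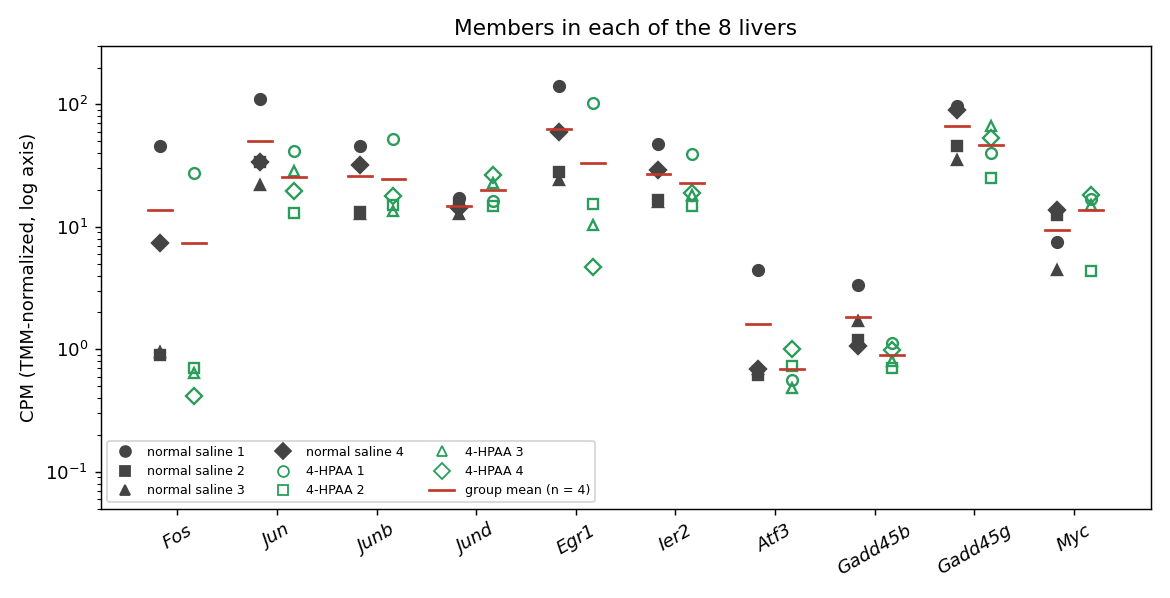
TMM-normalized CPM (log axis) of the 10 members in each of the 8 livers, with a marker shape for each replicate number, filled for normal saline and open for 4-HPAA, and a red line for the mean of each group (n = 4). Fos was highest in normal saline 1 (45.6 CPM) and 4-HPAA 1 (27.5 CPM) and stayed under 1 CPM in 5 livers. The 2 groups overlapped in every member, as they did in all but 1.2% of all genes tested.

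Across the 10 members, 0 passed the adjusted threshold of 0.05, as did 0% of the 12883 genes tested (edgeR). DESeq2 called 0 members too, but gave no p for Atf3. At an edgeR unadjusted p under 0.05 there were 2 of the 10, Gadd45b and Jund, in opposite directions, against 1.75% of all genes (225). DESeq2 gave 2 members and limma-voom 1 at the unadjusted level. In 0 of the 10 were the groups of mice apart, where 1.2% of all genes were. In all, 8 members had a lower and 2 a higher fitted level with 4-HPAA. Their median log2 fold change was -0.72, beside 0.001 over all genes, and 0.11 when normal saline 1 was left out. The median SE of the members was 0.47 against 0.13 over all genes.

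**Figure D2:**
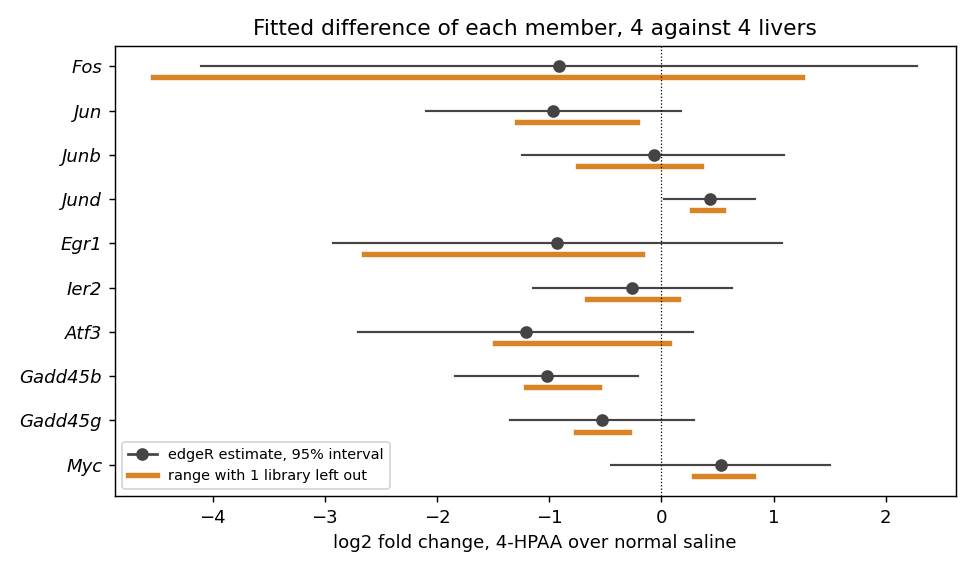
Log2 fold change of each member, 4-HPAA over normal saline, from edgeR with its 95% interval (dots and thin lines), and the range of the estimate when each of the 8 libraries was left out in turn (thick lines). The intervals of Gadd45b and Jund leave out 0 before adjustment, and the range for Fos runs from -4.53 to 1.25.

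The spread between mice of 1 group set these members apart in size from most genes. edgeR's biological coefficient of variation (BCV), the SD between mice relative to the mean after counting noise, had a median of 0.46 over the members and 0.14 over all genes tested. For Fos it was 1.31, and 1 other gene of the 12883 had a wider ratio of highest to lowest mouse than the 108 of Fos. Egr1 had a BCV of 0.82, which 0.10% of genes reached or passed. Atf3 followed with 0.60, Junb with 0.50, Jun with 0.49, Myc with 0.43, Ier2 with 0.39, Gadd45g with 0.36 and Gadd45b with 0.34. Jund had a BCV of 0.19, which 24.8% of genes reached. Among genes with a mean CPM within 2-fold of its own, 9.84% reached that of Jund and 10.62% that of Gadd45b. Much of the members' spread rested on single livers. For each gene below, the liver whose loss lowered the spread most was picked, so a drop was bound to appear. The coefficient of variation of CPM within a group, averaged over both groups, was 75.4% for Atf3 and 64.8% for Jun, and 19.9% and 35.2% without normal saline 1. Without 4-HPAA 1 that of Fos was 91.0% in place of 170%, that of Junb 37.7% in place of 68.1%, that of Egr1 69.0% in place of 113% and that of Ier2 33.6% in place of 51.9%. Fos kept a coefficient of 153% without normal saline 1, its highest liver. For Myc it was 27.4% without 4-HPAA 2 in place of 45.9%, and for Gadd45b 23.0% without normal saline 1 in place of 38.7%.

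**Figure D3:**
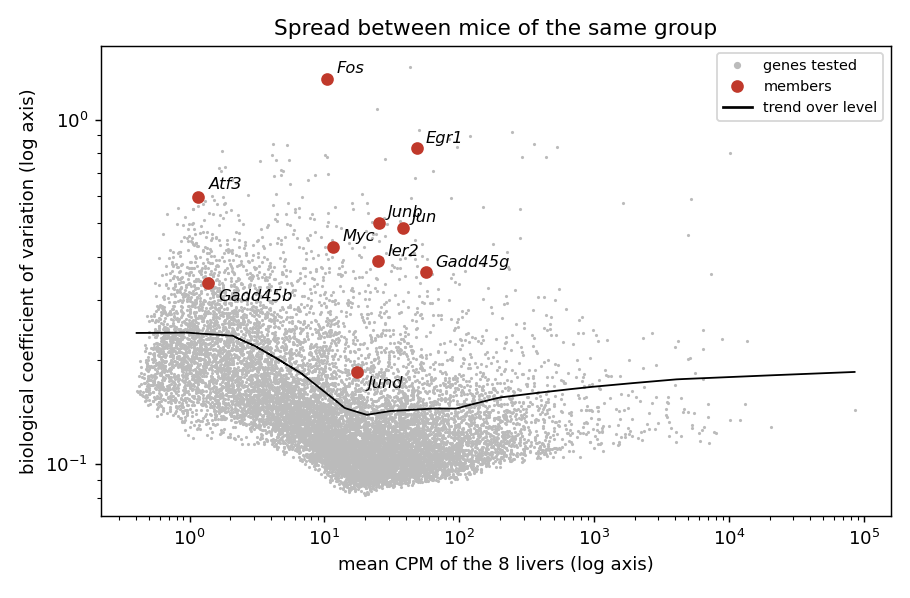
Biological coefficient of variation of each gene tested (grey dots) against its mean CPM over the 8 livers, both on log axes, with the members in red and the trend over level as a line. Fos at 1.31 and Egr1 at 0.82 lie far above the trend, and Jund at 0.19 lies near it.

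A single liver held the highest value of most members. Normal saline 1 was the highest of the 8 in 7 members (Fos, Jun, Egr1, Ier2, Atf3, Gadd45b and Gadd45g), where it was the highest in 12.02% of all genes. 4-HPAA 4 was the highest in Jund and Myc, against 18.66% of all genes, and 4-HPAA 1 in Junb, against 9.76%. 4-HPAA 4 was also the lowest in 2 members, against 20.61% of all genes. 4-HPAA 2 was the lowest in 5 members, against 11.8% of all genes. The 3 highest livers were exactly normal saline 1, normal saline 4 and 4-HPAA 1 in 4 members (Fos, Junb, Egr1 and Ier2), where that was so in 1.62% of all genes. Some other values of normal saline 1 were at an edge of the range and some were not. Its 5 cholangiocyte markers summed to 45.5 CPM against 23.4 to 38.0 CPM in the others. Most of that sum was Spp1, at 38.54 CPM against 18.15 to 30.25 CPM. Krt19 was at 1.12 CPM against 0.274 to 0.841 CPM, too few counts for the test. Krt7 and Epcam were also highest in this liver, at 0.994 and 1.667 CPM. Sox9 was not, at 3.21 CPM against 5.56 CPM in 4-HPAA 4. The 6 Kupffer cell markers summed to 99.4 CPM within a range of 74.6 to 257 CPM, and the 5 endothelial markers to 128 CPM within 87.8 to 146 CPM. For the 5 stellate cell markers the sum was 173.5 CPM, just above the 84.8 to 172.3 CPM of the other livers. The share of counts in transcripts without a gene was 0.703% in normal saline 1, the lowest of 0.703% to 1.06%. The part of these in the members' levels was not tested.

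Of 45 further immediate early genes, 36 had enough counts for the test, and 19 were higher and 17 lower with 4-HPAA, a median log2 fold change of 0.02. None passed after adjustment, and 5 had an edgeR unadjusted p under 0.05, beside 1.75% of all genes. The 2 lowest were Nr4a1 and Btg2 and the 2 highest Phlda1 and Ier5. Nr4a1, an orphan nuclear receptor, was at 22.1, 1.13, 0.919 and 3.09 CPM with normal saline and at 2.90, 0.700, 0.971 and 1.19 CPM with 4-HPAA, and it too was highest in normal saline 1 (log2 fold change -2.25, SE 0.98). Btg2, an antiproliferative gene, was at 91.3, 17.9, 15.2 and 54.2 CPM with normal saline and at 40.6, 16.4, 13.8 and 39.4 CPM with 4-HPAA. Phlda1 went the other way, at 24.3, 40.4, 20.96 and 51.1 CPM with normal saline and at 93.2, 22.8, 87.4 and 79.5 CPM with 4-HPAA (log2 fold change 1.05, SE 0.42). Its lowest 4-HPAA liver was 4-HPAA 2, as for Myc.

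The list as a whole repeated the pattern by mouse only in part. Normal saline 1 was the highest liver in 17 of the 36 genes (47.2%) and 4-HPAA 1 in 8, and the same 3 livers as in Fos led in 4 (Nr4a1, Dusp6, Btg2 and Zfp36). Over all genes tested the shares were 12.02% for normal saline 1, 9.76% for 4-HPAA 1 and 1.62% for those 3 livers. Fosb, the closest relative of Fos and named here after its values were seen, held 148 counts in normal saline 1, 0 to 4 in the other 7 livers, and so 4 in 4-HPAA 1, where Fos held 788. Cdkn1a, the cell cycle inhibitor that GADD45 proteins bind and likewise named after its values were seen, held 885 counts in normal saline 1 and 779 in 4-HPAA 4, against 81 to 235 in the others. Fosl1 was at 0 counts in all 8.

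**Figure D4:**
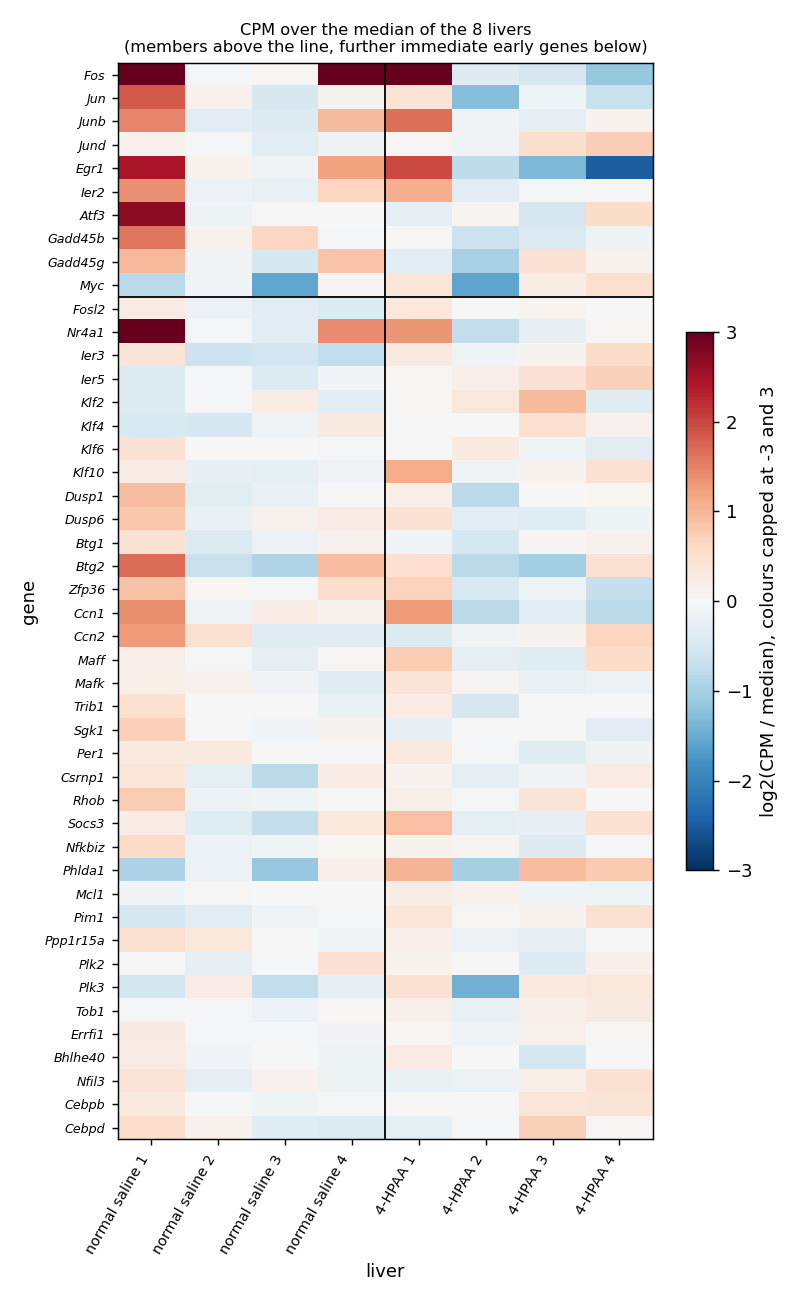
Log2 of CPM over the median of the 8 livers for the 10 members (above the black line) and the 36 further immediate early genes tested (below it), 1 column for each liver, with colours capped at -3 and 3. The column of normal saline 1 is high in most members and in Nr4a1 and Btg2, 4-HPAA 1 is high in Fos, Junb, Egr1 and Ier2, and Jund and Myc follow another order.

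The pathway genes around the members showed small differences between groups, and none passed after adjustment. Of 13 bZIP partners of AP-1 tested, 8 were higher and 5 lower (median log2 fold change 0.02), with Atf7 at -0.08, Mafg at 0.16 and Creb5 at 0.29. Of 21 kinases and factors that switch on immediate early genes, 10 were higher and 11 lower (median -0.01). Rps6ka5, the kinase MSK1, was the lowest at -0.38 and the receptor gene Egfr followed at -0.20, while Met was at 0.15 and Mrtfb, a coactivator of serum response factor, at 0.30 (SE 0.11, edgeR unadjusted p = 0.0195). The 2 corepressors of EGR1, Nab1 and Nab2, had log2 fold changes of 0.20 and 0.38. The edgeR unadjusted p was also under 0.05 for Nab1 (0.0363), and for Mnt (0.0294) and Hspa1b (0.0187) of the lists that follow. This was so for 1.75% of all genes.

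Of 7 GADD45 relatives and partners tested, 3 were higher and 4 lower (median -0.01), from Cdk1 at -0.18 and Trp53 at -0.16 to Map3k4, the gene of the kinase that Gadd45b binds, at 0.09 and Gadd45gip1 at 0.19. Around Myc, 6 of 12 network genes were higher and 6 lower (median 0.00), with Mlxipl at -0.12 and Mga at -0.06 lowest, and Mxi1 at 0.10 and Mnt, an antagonist of Myc, at 0.30 highest. Of 20 Myc targets, 6 were higher and 14 lower (median -0.08), from Ppan at -0.48 and Tfrc at -0.34 to Srm at 0.13 and Ccnd2 at 0.18. Heat shock genes gave 4 higher and 8 lower of 12 (median -0.05), with Hsf2 at -0.24 and Hsp90aa1 at -0.14 lowest and Hspb1 at 0.24 and Hspa1b at 0.37 highest. Of 14 genes of the interleukin-6 acute phase response, with Il6ra, Il6st and Stat3 of its signaling among them, 5 were higher and 9 lower (median -0.03). Lcn2 was the lowest at -0.76, with 17.6 CPM in normal saline 1 and 3.67 to 6.98 CPM in the other 7 livers. Saa1 was at -0.27, Saa3 at 0.30 and Socs3 at 0.37. 4-HPAA 1 was the highest liver in 8 of the 14, beside 9.76% of all genes.

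Levels were ordered between genes per length. By the median TPM of the 8 livers, Gadd45g was first with 76.7, followed by Ier2 with 19.8, Jun with 16.0, Jund with 15.1, Junb with 14.8, Egr1 with 13.4, Myc with 10.8, Gadd45b with 1.58, Fos with 0.915 and Atf3 with 0.653. Gadd45g was above Ier2 in 8 of 8 livers, and Myc above Gadd45b in 8 of 8. The neighbours Jun, Jund, Junb and Egr1 did not keep their order, since Jun was above Jund in 4 livers, Jund above Junb in 5 and Junb above Egr1 in 3. Fos, ninth by its median, reached 43.0 TPM in normal saline 1.

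The genes whose log2 CPM followed each member most closely over the 8 mice are given with Pearson's r as a measure of likeness, which rests on the few high livers and carries no test. For Fos these were Ier2 (0.96), the chemokine gene Cxcl1 (0.96) and Rpn1 (0.95), and Cxcl1 reached 15.8 CPM in 4-HPAA 1 and 13.5 CPM in normal saline 1. For Junb they were Ier2 (0.97), Klf15 (0.95) and Cers6 (0.95), and for Ier2 they were Junb (0.97), Fos (0.96) and S100a11 (0.96). Egr1 was followed by Zfp36 (0.97), Ip6k2 (0.96) and Gramd3 (0.95). Jun was followed by Tcim (0.98), Ehd2 (0.94) and Nrbp2 (0.93), and Atf3 by Fndc3b (0.97) and Galnt15 (0.95). Jund was nearest to Snx3 (0.98), Hnrnpa0 (0.98) and Nol7 (0.97), and Myc to Ten1 (0.97), Pin4 (0.95) and Foxq1 (0.95). Foxq1, a forkhead factor gene, ran from 4.49 CPM in normal saline 3 to 44.4 CPM in 4-HPAA 1. Gadd45b was nearest to Gm17970 (0.97), Armcx5 (0.94) and Epha5 (0.92), and Gadd45g to Zdhhc8 (0.96), Egfl7 (0.96) and Slc13a2 (0.95).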

How the data were processed

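Liver RNA of 8 mice was sequenced with a directional mRNA kit. The authors ran kallisto, which shares reads among transcripts, and deposited estimated counts per transcript and mouse, without normalization (FastQC 0.11.9 and GRCm38.p6 per the submitters' processing notes). Its standard parameters, named in the methods, do not use strand. Sums per gene were taken with the GENCODE M21 annotation (GRCm38) and rounded. Of 119414 transcripts, 116728 were matched to 35975 genes.

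edgeR 4.0.16 in R 4.3.3 was run on the 12883 genes whose count reached 10 in each library (quasi-likelihood F test, TMM, Benjamini-Hochberg adjustment, threshold 0.05). The SE of a log2 fold change is its size over the square root of F. Single members were also compared by exact permutation over all 70 assignments of the mice. The p-values of the F test set the difference between groups against the spread among mice within groups. Those of the permutation test set it against reassignments of the mice. DESeq2 1.42.0, limma-voom (limma 3.58.1), other normalizations and filters, single transcripts, each library left out and the replicate number as a block were alternatives. The fit was tested on simulated data of 12883 genes at these depths. There edgeR called 87 of 100 genes changed 2-fold and 92 of 100 changed 4-fold, with 7 false calls. The simulated spread was that of the trend over level, a BCV of 0.14 to 0.24 at the members' levels. Each member's own BCV was above its trend, at 0.19 to 1.31, so these rates do not hold for the members. TPM were computed from annotated transcript lengths, and likeness of genes on log2 CPM with a prior count of 2. CPM of 10 counts at this depth carry counting error that adds to the spread of the lowest members, Atf3, Gadd45b and Fos.

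All members are named, of each gene list the 2 highest and 2 lowest log2 fold changes, and for each member the 3 genes most like it. A gene that this rule names is not reported here in 2 places. The members and lists were chosen with earlier results of these data known.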

Additional observations from a re-analysis of the deposited data

Results flagged for a closer look

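In 12 of 58 groups examined, a library stood apart from the other 3 of its group. Its gap to the nearest neighbour passed the 95% critical share of the group's range (Dixon). In normally distributed values about 1 in 20, or 2.9, would do so. Normal saline 1 did so in Fos (45.6 CPM), Jun (111 CPM) and Atf3 (4.42 CPM), and in the summed level of the bZIP partners of AP-1 (667 CPM) and of the cholangiocyte markers (45.5 CPM). 4-HPAA 1 did so in Fos (27.5 CPM), Junb (51.9 CPM), Egr1 (102 CPM) and Ier2 (39.6 CPM). 4-HPAA 4 stood apart in the summed Myc targets (2081 CPM) and in the red blood cell genes (734 CPM), and normal saline 2 in the red blood cell genes (2560 CPM). These groups share mice and are not independent. The 2.9 assumes normal values, while CPM of several members were skewed by a few high livers. The members and lists were also chosen with earlier results known, so the 12 cannot be weighed against the 2.9.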

How the results depend on the processing

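The count of members past the adjusted threshold was 0 under every alternative run, though DESeq2 gave no p for Atf3. Over all genes, DESeq2 called 2 and edgeR 0 to 1 with a library left out (1 without 4-HPAA 1). Members at an unadjusted p under 0.05 were 1 with limma-voom, 1 without normal saline 2 and 4-HPAA 4, and 1 to 5 with a library left out (5 without 4-HPAA 1). They were 4 without normal saline 1 and 4-HPAA 1, a setting chosen after seeing the data. Genes at that level numbered 225, against 528 with no filter, 415 with a filter of 10 summed counts, 365 without normal saline 1 and 4-HPAA 1, and 196 to 340 with a library left out.

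With a library left out, log2 fold changes ranged from -4.53 to 1.25 for Fos, from -0.74 to 0.35 for Junb, from -0.66 to 0.15 for Ier2 and from -1.48 to 0.07 for Atf3. Junb was at 0.35, 0.04, 0.10, 0.13 and 0.04 without normal saline 1 or 4 or 4-HPAA 2, 3 or 4. Without normal saline 1 and 4-HPAA 1, Atf3 was at 0.16, Fos at -2.37 and Egr1 at -1.89. The median of the members ranged from -0.93 to 0.11 and that of the GADD45 partners from -0.17 to 0.05. The other list medians kept their values within the spread of their genes.

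Nothing in the labels ties same-numbered mice to each other. Libraries that share a number deviated from the group means with correlations of 0.04, 0.168, 0.268 and 0.48 (mean 0.239, against -0.078 for other numbers), not all over 0.1, and 4 of the 8 libraries correlated best with their own number. The numbers were therefore not taken as pairs. With the number as a replicate block, 4 members had an unadjusted p under 0.05 (edgeR, Fos at -1.35, Egr1 at -1.44, Jun at -0.81, Gadd45b at -0.93) and 0 an adjusted one. The unadjusted p of Fos was 0.0290 and that of Egr1 0.0144 in that edgeR fit. Set side by side by number, Fos, Egr1 and Gadd45b were lower with 4-HPAA in 4 of 4, and Jun, Ier2 and Gadd45g in 3 of 4. Jund and Atf3 were lower in 2 of 4, and Junb and Myc in 1 of 4. Correlations among the 45 pairs of members are not reported as tests, because the same 3 livers were highest in 4 members (Fos, Junb, Egr1 and Ier2). The values of r for nearest genes, some of them between members, describe likeness alone. The causes were not tested. Counts of 12 to 29 in most livers limit what can be said of Fos and Atf3 there.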
